A study of Mus musculus with 8 samples.

Results

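The 76 genes described here carry the names of 2 families of protease inhibitors. They were chosen by symbol alone, as every gene whose mouse symbol starts with Serpin or Spink and lacks the pseudogene ending -ps, and they were 76 of the 41388 features in the deposited gene tables. By clade they were 25 Serpina genes, 27 Serpinb genes, 11 other Serpin genes and 13 Spink genes. The tissue was whole ear of adult wild-type (WT) C57Bl/6 mice. The treated ears had received 1 nmol of topical calcipotriol (MC903), a vitamin D analogue, every day for 12 days, and the control ears had received its solvent, ethanol. There were 4 libraries from 4 MC903-treated mice and 4 libraries from 4 vehicle-treated mice, so each p-value measures the spread between ears of different mice. Both groups carried the same strain and genotype labels. Because RNA came from the whole ear, fewer cells of a type and less RNA per cell cannot be told apart in any of the values below.

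Serpins are proteins whose reactive centre loop is cleaved by a target protease, after which the serpin changes shape and holds the protease in a covalent complex. Clade A serpins are mostly secreted and many circulate in plasma, clade B serpins mostly stay inside cells and are common in epidermis and leukocytes, and some family members, such as the collagen chaperone encoded by Serpinh1, inhibit no protease. Spink proteins carry Kazal domains, which block serine proteases by tight reversible binding. In the outer epidermis, Spink5 protein restrains kallikreins, the serine proteases that cut the junctions between dying keratinocytes and so control shedding of the skin surface.

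The deposited counts summed to between 12310466 and 16837221 per library, and between 22205 and 23092 genes were detected per library. Cyp24a1, the vitamin D-inducible hydroxylase that degrades vitamin D compounds, checked the labels, with levels of 3390 to 4318 CPM (counts scaled to the library total and adjusted by TMM, trimmed mean of M values, factors) in MC903 libraries and 16.5 to 20.7 CPM in vehicle libraries. Vehicle replicate 2 stood apart from the other libraries, since Bpifa2, a salivary protein gene, took 24.5% of its counts, and its 8 salivary gland markers summed to 373400 CPM, against at most 464 CPM in any other library. Calls of the Serpin and Spink genes, and counts called in the protease and inhibitor lists, are therefore given with this library. Where such a call or count moved without it, that is given too. Calls of cell type markers are given with all 8 libraries only. Basal and suprabasal keratinocyte markers were present in every library, with basal sums of 9296 to 10980 CPM in MC903 libraries and 5948 to 8296 CPM in vehicle libraries, and suprabasal sums of 9887 to 13160 CPM in MC903 libraries and 8441 to 10500 CPM in vehicle libraries. Of the 7 basal markers Krt14 was called higher, at 7077 ± 828 CPM in MC903 libraries and 1939 ± 257 CPM in vehicle libraries (SD, n = 4 each), while Krt15 and Col17a1 were called lower and the median log2 fold change of the list was -0.27. Of the 8 suprabasal markers Krt1 and Dsc1 were called higher and Krt77 lower, with a median log2 fold change of 0.016. Krtdap, the largest part of the suprabasal sums, averaged 7005 CPM in MC903 libraries and 5454 CPM in vehicle libraries and was not called.

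Of the 76 genes, 46 had enough counts to be tested with edgeR's quasi-likelihood test, and 23 of these (50.0%) passed a Benjamini-Hochberg adjusted p of 0.05. Among all 16105 genes tested, 41.5% passed the same threshold, with 21.3% higher and 20.2% lower in MC903 ears. The 23 genes called were split into 15 higher and 8 lower, and 17 of the 23 differed by at least 2-fold. Without vehicle replicate 2, 35.7% of all genes tested were called, and 16 Serpin and Spink genes were called higher and 7 lower, since Serpina3i and Serpinb6d lost their calls while Serpina10 and Spink4 passed the filter and were called higher. The MC903 and vehicle libraries did not overlap for 23 of the 46 genes, against 38.7% of all genes tested, and 22 of those 23 were also called. The median log2 fold change was 0.32 over the 46 genes and -0.03 over all genes tested. By clade, 7 of 12 tested Serpina genes rose and 3 fell, 4 of 19 tested Serpinb genes rose and 4 fell, 1 of 9 other Serpin genes fell and none rose, and 4 of 6 tested Spink genes rose and none fell. The medians of these clades on the log2 scale were 0.62 for Serpina, 0.29 for Serpinb, -0.30 for other Serpin genes and 1.04 for Spink genes.

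**Figure D1:**
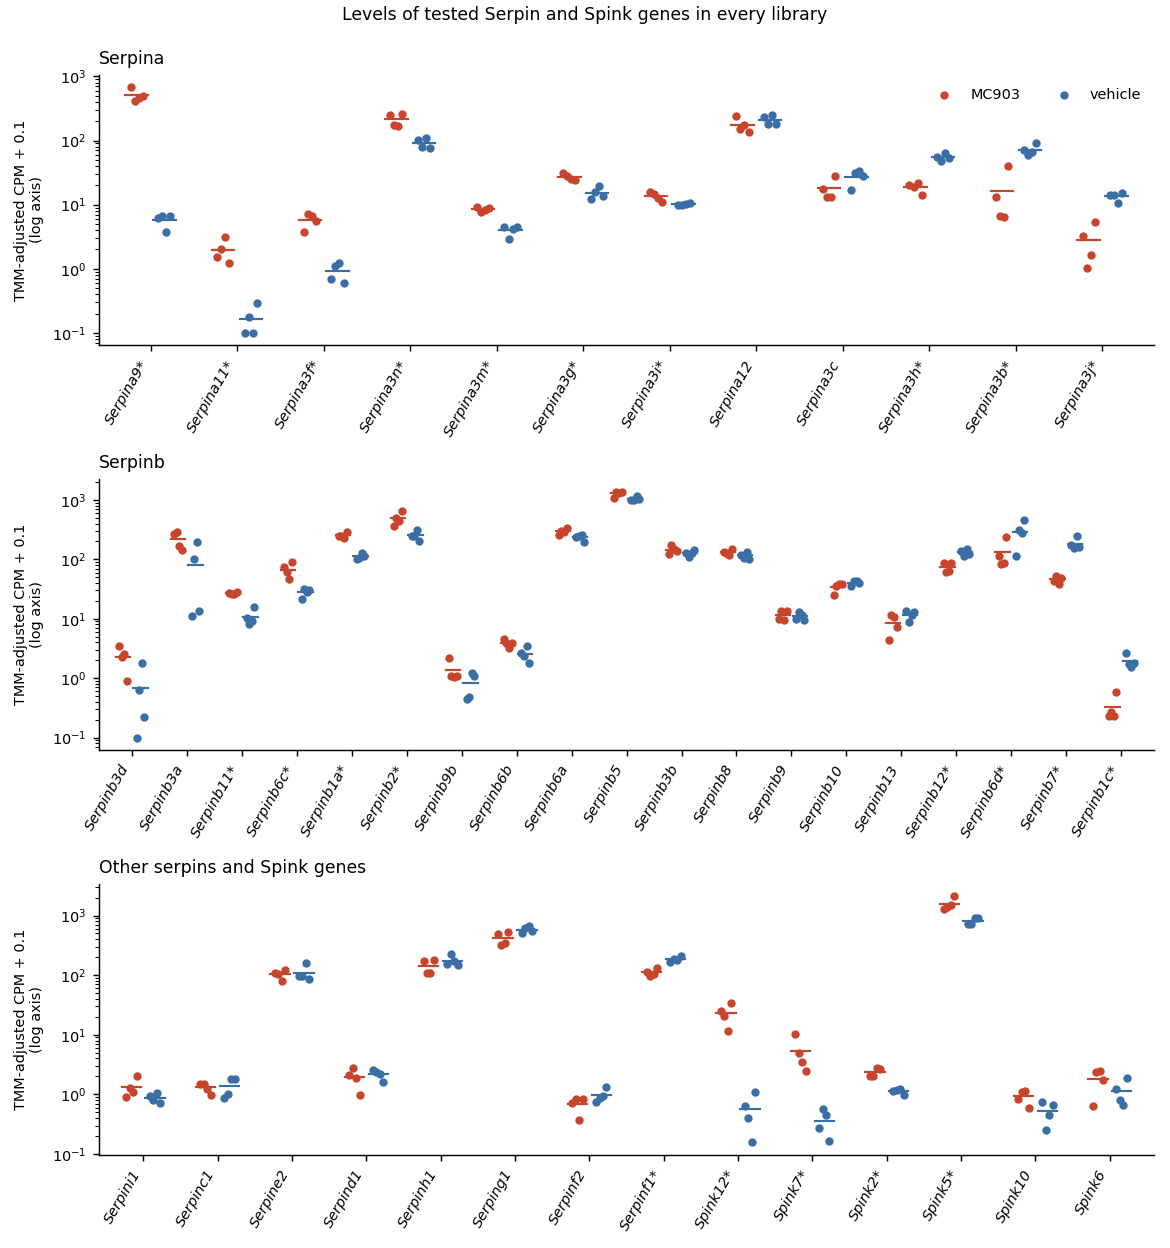
Levels of 45 tested genes in every library, in CPM adjusted by TMM factors plus 0.1, on a log axis, with MC903 libraries in red, vehicle libraries in blue, and short lines at the group means. An asterisk marks an adjusted p under 0.05. The separation is widest for Serpina9, Spink12, Serpina11 and Spink7, while the vehicle libraries of Serpinb3a spread from 10.9 to 195 CPM.

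The clade A genes held both the largest rise among the members and a group of falling paralogs. Serpina9, whose human counterpart is known as centerin of germinal centre B cells, had 689, 417, 468 and 501 TMM-adjusted CPM in MC903 libraries, against 6.07, 6.46, 3.60 and 6.56 CPM in vehicle libraries. Every MC903 library was far above every vehicle library, and the log2 fold change was 6.52 ± 0.27 (SE, adjusted p = 6.30e-08), or 91.5-fold. Serpina9 (ENSMUSG00000058260) lies at chr12:103994743-104013755 on the minus strand (mm10), and only 1.3% of the 50-base windows of its transcripts occur in another gene. B cell markers, a list added after the values were seen, summed to 3.57 to 9.18 CPM in MC903 libraries and 1.87 to 3.59 CPM in vehicle libraries, with 2 of 7 markers tested and 1 of them higher. The higher marker was Cd79b, a subunit of the B cell receptor (log2 fold change 1.78 ± 0.32, adjusted p = 0.00118), and the defining B cell gene Pax5 had 0 counts in all 8 libraries. The part of B cells in the Serpina9 result was not tested. Its neighbour Serpina11 had 1.42, 1.92, 3.05 and 1.14 CPM in MC903 libraries, against 0, 0.077, 0 and 0.187 CPM in vehicle libraries. These groups did not overlap either, and the log2 fold change was 4.73 ± 0.64 (adjusted p = 1.83e-04). Of the exon bases of Serpina11, 40.8% are shared with the annotated gene Gm28577, so its counts are uncertain.

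Serpina3 is a single gene in humans, encoding alpha-1-antichymotrypsin, and is a row of paralogs in mice, at chr12:104112724-104414329. Of the 11 Serpina3 genes, 9 were tested, 5 rose and 3 fell, so neighbours in one row moved in opposite directions. Over all genes tested, 21.3% rose and 20.2% fell. Serpina3n, an acute-phase inhibitor that in mice can block granzyme B, had 254, 175, 171 and 259 CPM in MC903 libraries, against 103, 80.4, 109.6 and 77.5 CPM in vehicle libraries. In MC903 libraries it was the most abundant Serpina3 gene per length. In vehicle libraries its level per length was 44.9 ± 7.78 TMM-adjusted CPM per kilobase (SD, n = 4). Serpina3h (38.3 ± 4.63) and Serpina3b (34.8 ± 6.44) had lower means there, but their mean ± SD ranges overlapped that of Serpina3n. The groups of Serpina3n did not overlap, and its log2 fold change was 1.21 ± 0.19 (adjusted p = 3.99e-04). Serpina3f had 3.71, 7.08, 6.56 and 5.52 CPM in MC903 libraries, against 0.589, 0.999, 1.14 and 0.4997 CPM in vehicle libraries. Its lowest MC903 library was above its highest vehicle library, with a log2 fold change of 2.81 ± 0.31 (adjusted p = 4.12e-05). Serpina3m had 8.97, 7.58, 8.02 and 8.68 CPM in MC903 libraries, against 4.36, 2.84, 4.11 and 4.44 CPM in vehicle libraries, a log2 fold change of 1.07 ± 0.18 (adjusted p = 6.93e-04). Serpina3g, known in mice as an inhibitor of lysosomal cathepsins, rose by a log2 fold change of 0.83 ± 0.16 (adjusted p = 0.00206). The rise of Serpina3i was the smallest called among the members, 0.41 ± 0.14 (adjusted p = 0.0384), and it lost its call when any library but MC903 replicate 4 was left out (adjusted p = 0.0547 to 0.0946).

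The 3 falling paralogs were Serpina3h, Serpina3j and Serpina3b. Serpina3h, annotated as a transcribed pseudogene although its symbol lacks the ending, had 19.9, 18.9, 21.5 and 14.2 CPM in MC903 libraries, against 55.7, 47.1, 63.2 and 53.8 CPM in vehicle libraries. All 4 MC903 libraries were lower than all 4 vehicle libraries, and the log2 fold change was -1.56 ± 0.15 (adjusted p = 1.80e-05). Serpina3j ranged from 0.917 to 5.27 CPM in MC903 libraries and from 10.6 to 15.1 CPM in vehicle libraries, with a log2 fold change of -2.31 ± 0.39 (adjusted p = 7.80e-04). Serpina3b ranged from 6.23 to 39.6 CPM in MC903 libraries and from 59.9 to 90.6 CPM in vehicle libraries, with a log2 fold change of -2.14 ± 0.49 (adjusted p = 0.0052). In both genes MC903 replicate 4 was the highest of its group and stayed below every vehicle library. Hair follicle markers moved in the same direction, summing to 7.55 to 21.5 CPM in MC903 libraries and 27.0 to 141.6 CPM in vehicle libraries with all 6 tested genes of 8 lower. Adipocyte, skeletal muscle, cartilage and nerve markers also had genes called lower and none higher. In MC903 replicate 4 the hair follicle sum was the lowest of its group, at 7.55 CPM. There the adipocyte (826 CPM), skeletal muscle (4731 CPM) and cartilage (287 CPM) sums were the highest of the group, and the nerve sum (139 CPM) was not. The part of these cell types in the fall of these paralogs was not tested. Serpina3c was not called, at 12.9 to 28.2 CPM in MC903 libraries and 16.8 to 33.5 CPM in vehicle libraries (log2 fold change -0.61 ± 0.27, adjusted p = 0.0939). Serpina3h shares 21.9% of its 50-base windows with other genes, most with Serpina3i, and Serpina3m (19.1%), Serpina3i (15.9%), Serpina3g (15.5%) and Serpina3f (10.6%) also share windows, so counts of these single genes are uncertain.

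Because neighbouring Serpina3 genes moved both ways, the 250 bases upstream of their RefSeq start sites (GRCm38.p6, plus strand of chromosome 12) are shown for 4 paralogs that rose, Serpina3f, Serpina3g, Serpina3i and Serpina3n, and then for 2 that fell, Serpina3b and Serpina3j. Capitals mark matches on either strand to the STAT motif TTCNNNGAA or to the TATA box motif TATAAA, and each line ends at the base before the start site.
Serpina3f: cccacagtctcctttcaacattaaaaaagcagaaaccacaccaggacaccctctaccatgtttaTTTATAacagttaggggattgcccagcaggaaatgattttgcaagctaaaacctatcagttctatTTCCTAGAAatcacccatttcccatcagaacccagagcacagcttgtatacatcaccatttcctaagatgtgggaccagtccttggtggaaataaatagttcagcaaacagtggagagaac
Serpina3g: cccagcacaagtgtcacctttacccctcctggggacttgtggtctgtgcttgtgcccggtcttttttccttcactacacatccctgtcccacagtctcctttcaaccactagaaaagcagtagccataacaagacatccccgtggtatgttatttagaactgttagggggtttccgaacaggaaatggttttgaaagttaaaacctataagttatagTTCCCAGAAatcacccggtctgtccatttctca
Serpina3i: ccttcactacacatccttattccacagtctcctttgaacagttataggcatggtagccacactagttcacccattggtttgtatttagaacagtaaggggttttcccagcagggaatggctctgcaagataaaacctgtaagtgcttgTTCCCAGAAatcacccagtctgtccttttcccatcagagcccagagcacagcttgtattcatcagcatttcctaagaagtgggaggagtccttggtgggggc
Serpina3n: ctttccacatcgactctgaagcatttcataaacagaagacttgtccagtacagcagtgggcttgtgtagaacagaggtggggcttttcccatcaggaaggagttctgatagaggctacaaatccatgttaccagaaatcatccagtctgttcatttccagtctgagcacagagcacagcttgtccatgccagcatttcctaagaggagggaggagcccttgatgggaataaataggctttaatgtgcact
Serpina3b: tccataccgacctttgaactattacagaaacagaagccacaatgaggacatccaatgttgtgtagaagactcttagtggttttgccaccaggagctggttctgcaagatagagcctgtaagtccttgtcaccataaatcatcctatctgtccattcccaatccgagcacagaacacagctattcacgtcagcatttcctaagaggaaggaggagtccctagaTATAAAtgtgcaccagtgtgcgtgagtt
Serpina3j: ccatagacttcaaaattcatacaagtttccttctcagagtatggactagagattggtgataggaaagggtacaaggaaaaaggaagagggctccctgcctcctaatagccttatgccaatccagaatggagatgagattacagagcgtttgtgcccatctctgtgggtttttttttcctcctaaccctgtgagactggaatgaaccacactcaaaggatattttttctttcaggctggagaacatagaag
The windows cover chr12:104214294-104214543 for Serpina3f, chr12:104235897-104236146 for Serpina3g, chr12:104262872-104263121 for Serpina3i, chr12:104406458-104406707 for Serpina3n, chr12:104127746-104127995 for Serpina3b and chr12:104314320-104314569 for Serpina3j. Serpina3n and Serpina3b, which moved in opposite directions, had the most similar pair of windows, with 69.7% identical columns in a global alignment. Among Serpina3f, Serpina3i, Serpina3n and Serpina3b the other pairs lay between 63.0% and 65.1%, whereas Serpina3j reached at most 50.5% with another Serpina3 window and 52.1% with the unrelated window of Serpinb11. Serpina3g reached 39.5% to 50.2% with the other Serpina3 windows, but its RefSeq start lies 98 bases upstream of the deposited gene start. The letters that open the Serpina3f window stand further along the Serpina3g window. The percentages of Serpina3g therefore cannot be read as the similarity of these promoters at matching positions. The STAT motif stood 121 bases upstream of the start in Serpina3f, 102 bases upstream in Serpina3i and 33 bases upstream in Serpina3g, whose RefSeq start differs from the deposited gene start by 98 bases.

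RefSeq promoter windows were matched for 54 of the 76 genes. No window was matched for Serpina9, Serpina3m, Serpinb1a, Spink5, Spink7 and Spink12, which rose, or for Serpina3h, which fell. No motif was searched in these genes. The STAT motif occurred in 4 of the 9 windows of genes that rose (Serpina11, Serpina3f, Serpina3g and Serpina3i), in 0 of the 7 windows of genes that fell, in 1 of the 18 windows of tested genes that were not called, and in 2 of the 20 windows of genes not tested. Over all 32851 RefSeq promoter windows of the same length 7.02% held it. In Serpina3f, Serpina3g and Serpina3i the motif stands before the same letters, atcaccc, so these matches in neighbouring paralogs are not independent. The AP-1 motif TGANTCA occurred in 2 windows of genes that rose (Serpinb11 and Serpinb2), 2 of genes that fell (Serpinb12 and Serpinb7), 3 of genes not called and 4 of genes not tested, against 6.75% of all windows. The NF-kappaB motif, searched as GGGA and TCC with any 3 bases between them, occurred in none of the windows of genes that were called and in 1 of the windows of genes not called, against 3.86% of all windows. The TATA box motif occurred in 2 windows of genes that rose, 4 of genes that fell, 4 of genes not called and 4 of genes not tested, against 12.4% of all windows. Some windows with an AP-1 or TATA box match were far from the deposited gene start. The RefSeq start used was 23034 bases away for Serpinb7, 92184 for Serpina1b and 117247 for Serpinb3b. The DR3 element of the vitamin D receptor occurred in none of the 54 windows and in 0.0396% of all windows. These letter matches describe the windows and are no evidence of binding.

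Among the remaining clade A genes, Serpina12, which encodes the adipokine vaspin, an inhibitor of kallikrein 7, had 134.5 to 244.8 CPM in MC903 libraries and 180.0 to 254.6 CPM in vehicle libraries. It was not called (log2 fold change -0.27 ± 0.20, adjusted p = 0.301). Adipocyte markers summed to 178 to 826 CPM in MC903 libraries and 565 to 2062 CPM in vehicle libraries, with 4 of 6 lower. The sum of 2062 CPM belonged to vehicle replicate 2, and no other vehicle library exceeded 835 CPM. The part of adipocytes in the Serpina12 level was not tested. None of the 6 Serpina1 genes, the mouse genes for the plasma elastase inhibitor alpha-1-antitrypsin, had enough counts to be tested, with between 0 and 17 counts per gene over the 4 MC903 libraries and between 0 and 10 over the 4 vehicle libraries. Serpina1a, Serpina1b, Serpina1c, Serpina1d and Serpina1e share 29.5% to 79.3% of their 50-base windows with other genes, mostly with each other. The 8 hepatocyte markers summed to 591 to 1087 CPM in MC903 libraries and 400 to 906 CPM in vehicle libraries, most of it Hp, the acute-phase gene for haptoglobin, which was not called (0.48 ± 0.27, adjusted p = 0.176). Alb and Ttr, the other tested markers, were called lower with all 8 libraries in the fit, and Fgb had 0 counts in every library. The vehicle level of Ttr was 8.89 ± 15.3 CPM (SD, n = 4), a spread larger than its mean.

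The Serpina genes not tested are given by their counts summed over the 4 libraries of each group. They were Serpina10 (52 MC903, 11 vehicle), Serpina1b (17 MC903, 6 vehicle), Serpina1d (8 MC903, 6 vehicle), Serpina3k (15 MC903, 54 vehicle), Serpina5 (2 MC903, 20 vehicle), Serpina1e (0 MC903, 10 vehicle), Serpina16 (1 MC903, 7 vehicle), Serpina1a (1 MC903, 6 vehicle), Serpina6 (3 MC903, 0 vehicle), Serpina1f (2 MC903, 0 vehicle) and Serpina3a (2 MC903, 3 vehicle). Serpina1c and Serpina7 had 0 counts in all 8 libraries. Serpina10, the inhibitor of coagulation factor X that acts with protein Z, was higher in MC903 libraries by a count ratio of 5.28 after scaling for library size, with a 95% exact interval of 2.72 to 11.2 that covers counting error only. Serpina3k, which shares 14.0% of its windows with other genes, mostly Serpina3m, was lower by a ratio of 0.31 (0.162 to 0.557). With no filter on low counts, Serpina10 passed the threshold as higher (adjusted p = 7.52e-04), and Serpina3k (adjusted p = 0.0104), Serpina5 (adjusted p = 0.0146) and Serpina1e (adjusted p = 0.0426) passed as lower.

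**Figure D2:**
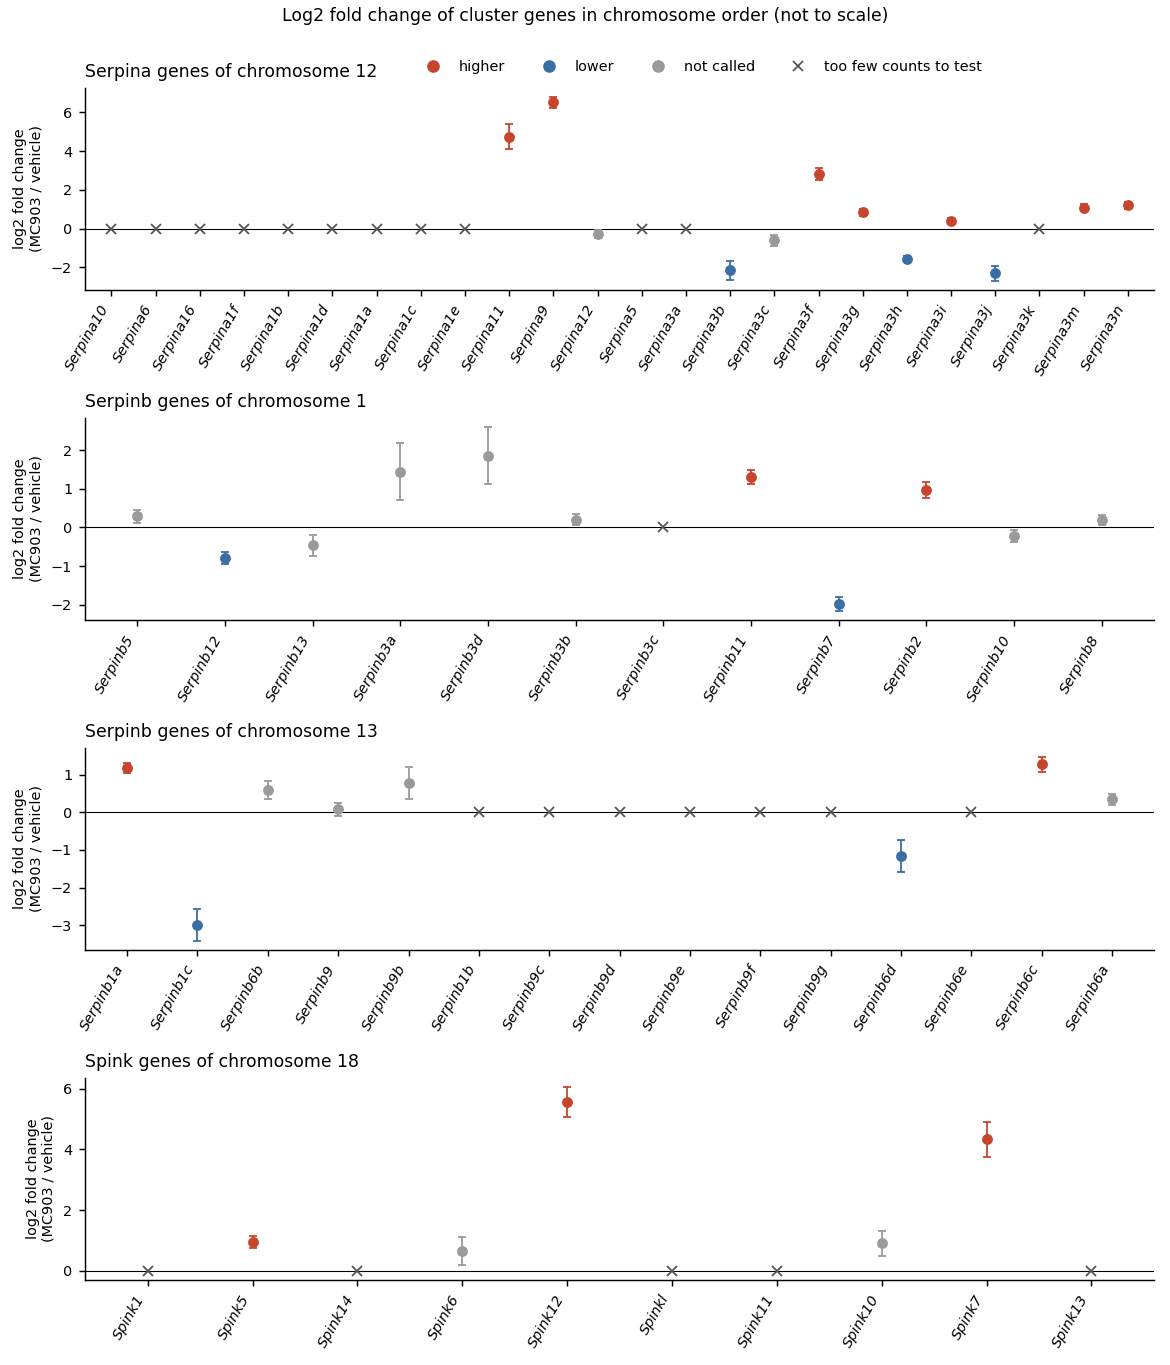
Log2 fold change with its SE, MC903 over vehicle, for genes in chromosome order and not to scale, coloured by call. Panels show Serpina genes of chromosome 12, Serpinb genes of chromosomes 1 and 13, and Spink genes of chromosome 18. Crosses on the zero line mark genes with too few counts to test. Spink10, Spink7 and Spink13 (from chr18:62548911) lie far from the other Spink genes shown (chr18:43728069-44196177). In the Serpina3 row of chromosome 12 and in both Serpinb clusters, called genes lie on both sides of zero, while the 3 called Spink genes of chromosome 18 lie above it.

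The Serpinb genes fell into a cluster of 12 genes on chromosome 1 and a cluster of 15 on chromosome 13, and each cluster had 2 genes called higher and 2 called lower. These were 36.4% of the 11 tested genes on chromosome 1 and 50.0% of the 8 on chromosome 13, near the 41.5% of all genes tested. On chromosome 1, Serpinb7, whose loss in humans causes a thickening disorder of palm and sole skin, had 43.3, 52.6, 38.4 and 49.1 CPM in MC903 libraries, against 171, 153.5, 243 and 158 CPM in vehicle libraries. Serpinb7 (ENSMUSG00000067001) lies at chr1:107399655-107452689 on the plus strand. The groups were well apart and the log2 fold change was -1.99 ± 0.17 (adjusted p = 9.27e-06). Serpinb12, which in humans inhibits trypsin-like proteases, had 86.0, 61.9, 63.2 and 88.2 CPM in MC903 libraries, against 139.7, 113.7, 146 and 122 CPM in vehicle libraries. It fell by 0.80 ± 0.15 on the log2 scale (adjusted p = 0.00178), again without overlap.

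Serpinb11, next to Serpinb7, moved the other way, with 26.8, 25.9, 26.3 and 28.2 CPM in MC903 libraries, against 10.3, 8.15, 9.14 and 15.6 CPM in vehicle libraries. Its log2 fold change was 1.31 ± 0.19 (adjusted p = 2.43e-04), and its MC903 libraries lay close together. Serpinb2, encoding plasminogen activator inhibitor-2 of keratinocytes and macrophages, had 359.9, 504, 446.5 and 658.5 CPM in MC903 libraries, against 242.5, 251, 314 and 204.5 CPM in vehicle libraries. It rose by 0.96 ± 0.21 on the log2 scale (adjusted p = 0.00369), and 12.4% of its exon bases are shared with Serpinb10. Serpinb10, annotated as a polymorphic pseudogene, had 24.8 to 38.9 CPM in MC903 libraries and 35.8 to 43.6 CPM in vehicle libraries. It was not called (adjusted p = 0.243). Macrophage markers summed to 1055 to 1570 CPM in MC903 libraries and 350.4 to 463 CPM in vehicle libraries, with all 6 higher, and their part in the Serpinb2 result was not tested.

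Serpinb5, encoding maspin, a serpin of epithelial cells without inhibitory activity, had 1078, 1383, 1311 and 1378 CPM in MC903 libraries, against 1002, 978, 1182 and 1050.0 CPM in vehicle libraries. Its groups overlapped and it was not called (log2 fold change 0.29 ± 0.17, adjusted p = 0.179), although DESeq2 gave an adjusted p of 0.0408. Of the Serpinb3 genes, relatives of the human squamous cell carcinoma antigens, 3 of 4 were tested (Serpinb3a, Serpinb3b and Serpinb3d). None was called, against 1 at an unadjusted p under 0.05, 0 with DESeq2 and 2 with limma-voom. Serpinb3a, which in mice inhibits both serine proteases and cathepsins, ranged from 143 to 286.5 CPM in MC903 libraries and from 10.9 to 195 CPM in vehicle libraries. Vehicle replicates 2 and 3 were high and vehicle replicates 1 and 4 were low, and the log2 fold change of 1.44 ± 0.74 was not called (adjusted p = 0.137). Without vehicle replicate 3, Serpinb3a (2.39, adjusted p = 0.0259) and Serpinb3d (3.41, adjusted p = 0.00636) passed the threshold. With limma-voom the adjusted p was 0.0395 for Serpinb3a and 0.0241 for Serpinb3d, and each shares over 10% of its windows with other genes. Serpinb3b (log2 fold change 0.20), Serpinb8 (0.19) and Serpinb13 (-0.46) were not called. Serpinb3c was not tested, with 49 counts over the MC903 libraries and 9 over the vehicle libraries, a ratio of 6.08 (2.95 to 14.1, counting error only).

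On chromosome 13, Serpinb1a, an inhibitor of neutrophil elastase, cathepsin G and proteinase 3, had 248, 248, 225 and 287 CPM in MC903 libraries, against 101.7, 106.5, 129 and 112 CPM in vehicle libraries. Serpinb1a (ENSMUSG00000044734) lies at chr13:32842092-32851185 on the minus strand. Every MC903 library was above every vehicle library, and the log2 fold change was 1.17 ± 0.13 (adjusted p = 5.68e-05). Its paralog Serpinb1c had 0.135, 0.167, 0.133 and 0.487 CPM in MC903 libraries, against 2.59, 1.61, 1.43 and 1.69 CPM in vehicle libraries. Serpinb1c fell by 2.99 ± 0.42 on the log2 scale (adjusted p = 2.20e-04), and no library of one group reached the other group. Neutrophil markers summed to 58.8 to 85.2 CPM in MC903 libraries and 14.6 to 19.0 CPM in vehicle libraries, with 3 of 7 tested and 2 higher. Cxcr2, at 54.6 CPM, held most of the MC903 sum, and Mmp9 was not called (0.13 ± 0.28, adjusted p = 0.725). The markers not tested went both ways in summed counts. They were Ly6g (6 MC903, 0 vehicle), Ngp (49 MC903, 10 vehicle), Camp (12 MC903, 13 vehicle) and Mpo (13 MC903, 53 vehicle). The part of neutrophils in the Serpinb1a result was not tested.

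The Serpinb6 genes of the same cluster also split. Serpinb6c had 73.3, 59.9, 46.3 and 88.4 CPM in MC903 libraries, against 21.3, 31.1, 28.3 and 30.2 CPM in vehicle libraries. It rose by 1.27 ± 0.20 on the log2 scale without overlap (adjusted p = 4.58e-04). Serpinb6d ranged from 82.1 to 239 CPM in MC903 libraries and from 112.8 to 466 CPM in vehicle libraries, so the groups overlapped. It was called lower (log2 fold change -1.16 ± 0.42, adjusted p = 0.0453), but not without vehicle replicate 2 (adjusted p = 0.0773) and not with DESeq2 (adjusted p = 0.0706). Serpinb6a, the mouse counterpart of the human cathepsin G inhibitor, had 261.4 to 336 CPM in MC903 libraries and 193 to 261.1 CPM in vehicle libraries. Its lowest MC903 library lay just above its highest vehicle library, and it was not called (log2 fold change 0.35 ± 0.15, adjusted p = 0.0799), though it was called higher with DESeq2 (adjusted p = 0.0247) and without MC903 replicate 1 (adjusted p = 0.0353). Genes on the other strand overlap 29.3% of its exon bases, and whether the counting used strand was not given in the sources used here. Serpinb6b was not called (adjusted p = 0.0623).

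Serpinb9, which protects cells from granzyme B, had 9.28 to 13.6 CPM in MC903 libraries and 9.25 to 12.99 CPM in vehicle libraries (log2 fold change 0.07 ± 0.18, adjusted p = 0.761), while cytotoxic lymphocyte markers summed to 45.2 to 77.4 CPM in MC903 libraries and 23.6 to 27.2 CPM in vehicle libraries. Of the 7 tested cytotoxic markers 5 were higher and 1 lower. Gzmb, the gene for granzyme B, averaged 21.4 ± 5.94 CPM in MC903 libraries and 0.954 ± 0.231 CPM in vehicle libraries (SD, n = 4 each), while Prf1, encoding perforin, was called lower (-1.13 ± 0.38, adjusted p = 0.0321). Serpinb9b was not called (0.78 ± 0.44, adjusted p = 0.172). The other Serpinb9 genes were near or at 0, with 1 count over the MC903 and 4 over the vehicle libraries for Serpinb9f and none for Serpinb9c, Serpinb9d, Serpinb9e and Serpinb9g. A count of 0 in a library allows up to 0.171 to 0.250 CPM on the TMM-adjusted scale, taking 3 counts as the limit. Of the 50-base windows of Serpinb9d, Serpinb9e, Serpinb9f and Serpinb9g, 28.4% to 78.7% occur in other genes, and so does a smaller share of those of Serpinb9c, so where reads that match several genes were dropped, the counts do not limit their expression. Serpinb1b had 20 counts over the MC903 and 14 over the vehicle libraries, and Serpinb6e had 36 over the MC903 and 35 over the vehicle libraries.

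Of the 11 other Serpin genes, which act in plasma, matrix, vessels and nerves, 9 were tested and 1 was called, against 41.5% of all genes tested. None was higher by edgeR, by DESeq2 or by limma-voom, and 0 were higher at an unadjusted p under 0.05. Serpinf1, encoding pigment epithelium-derived factor, a secreted protein that restrains vessel growth, had 112.9, 98.4, 105.4 and 129.8 CPM in MC903 libraries, against 165, 187, 178 and 209.5 CPM in vehicle libraries. Serpinf1 (ENSMUSG00000000753) lies at chr11:75409769-75422701 on the minus strand. All MC903 libraries were lower, and the log2 fold change was -0.73 ± 0.13 (adjusted p = 0.00126). Fibroblast markers summed to 7540 to 11170 CPM in MC903 libraries and 11030 to 15410 CPM in vehicle libraries, with 1 of 7 (Dcn) called lower, and their part in the Serpinf1 result was not tested. Serping1, the C1 inhibitor of the complement and kinin systems, had 482, 327, 353 and 525 CPM in MC903 libraries, against 509, 625, 655.5 and 542 CPM in vehicle libraries. MC903 replicate 4 was above vehicle replicate 1, and the log2 fold change of -0.47 ± 0.19 was not called (adjusted p = 0.0703), though DESeq2 (adjusted p = 0.0364) and limma-voom (adjusted p = 0.0493) passed it.

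Serpinh1, the collagen chaperone of the endoplasmic reticulum, had 175, 108.4, 109.8 and 178 CPM in MC903 libraries, against 155, 227, 172 and 149.8 CPM in vehicle libraries, with overlapping groups (-0.30 ± 0.21, adjusted p = 0.261). Serpini1, the neuronal inhibitor of tissue plasminogen activator called neuroserpin, had 0.8096, 1.17, 0.994 and 1.95 CPM in MC903 libraries, against 0.825, 0.692, 0.971 and 0.625 CPM in vehicle libraries (0.63 ± 0.33, adjusted p = 0.144). Serpinf2, encoding the plasmin inhibitor alpha-2-antiplasmin, had 0.607, 0.7499, 0.265 and 0.7303 CPM in MC903 libraries, against 0.648, 0.768, 0.857 and 1.25 CPM in vehicle libraries (-0.60 ± 0.37, adjusted p = 0.209). For none of these genes were the groups separate. Serpine2, encoding protease nexin-1 (log2 fold change -0.08), Serpind1, encoding heparin cofactor II (-0.17), and Serpinc1, encoding antithrombin (-0.08), were not called. Serpine3 had 32 counts over the MC903 and 44 over the vehicle libraries, Serpini2 had 1 over the MC903 and 0 over the vehicle libraries, and neither was tested.

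Every tested Spink gene had a positive log2 fold change, and 4 of the 6 were called higher, against 21.3% of all genes tested. None was lower by edgeR, by DESeq2 or by limma-voom, nor at an unadjusted p under 0.05. Spink5, encoding LEKTI, the inhibitor of epidermal kallikreins that is lost in human Netherton syndrome, had 1275, 1414, 1479 and 2109 CPM in MC903 libraries, against 724, 732, 913 and 893 CPM in vehicle libraries. Spink5 (ENSMUSG00000055561) lies at chr18:43963235-44022501 on the plus strand. No vehicle library reached the lowest MC903 library, and Spink5 rose 1.92-fold (log2 fold change 0.94 ± 0.20, adjusted p = 0.00332). Spink12, of the same cluster on chromosome 18, had 25.2, 20.9, 11.6 and 33.6 CPM in MC903 libraries, against 0.5302, 0.307, 0.057 and 0.999 CPM in vehicle libraries. Spink12 (ENSMUSG00000061144), at chr18:44104407-44108543, had the largest rise among the tested Spink genes, 5.57 ± 0.49 on the log2 scale (adjusted p = 9.68e-06). Spink7, whose human counterpart is an esophageal inhibitor of urokinase, had 10.4, 4.92, 3.38 and 2.35 CPM in MC903 libraries, against 0.177, 0.461, 0.343 and 0.062 CPM in vehicle libraries. The groups were far apart, with a log2 fold change of 4.34 ± 0.58 (adjusted p = 1.64e-04).

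Spink2, on chromosome 5, an inhibitor of the sperm protease acrosin, had 1.96, 1.92, 2.65 and 2.60 CPM in MC903 libraries, against 1.06, 1.08, 1.14 and 0.875 CPM in vehicle libraries. It rose by 1.13 ± 0.23 on the log2 scale (adjusted p = 0.00265) without overlap. Spink10 had 0.742, 0.9998, 1.06 and 0.487 CPM in MC903 libraries, against 0.648, 0.154, 0.343 and 0.562 CPM in vehicle libraries, and it was not called (adjusted p = 0.102). Spink6, a kallikrein inhibitor of human skin, had 0.5398, 2.25, 2.32 and 1.62 CPM in MC903 libraries, against 1.12, 0.692, 0.571 and 1.81 CPM in vehicle libraries, and was not called (adjusted p = 0.268). Both genes had overlapping groups. Of the genes not tested, Spink14, next to Spink5, had 43 counts over the MC903 and 5 over the vehicle libraries, a ratio of 9.596 (3.81 to 31.0, counting error only), and with no filter it was called higher (adjusted p = 4.13e-04). Spink4, a gene of intestinal goblet cells, had 54 counts over the MC903 and 26 over the vehicle libraries and was called higher with no filter (adjusted p = 0.0302). Spink1 (6 MC903, 11 vehicle), Spink8 (3 MC903, 7 vehicle), Spink13 (5 MC903, 7 vehicle), Spinkl (3 MC903, 1 vehicle) and Spink11 (1 MC903, 2 vehicle) had few counts in both groups. For none of Spink5, Spink7 and Spink12 did another gene share a 50-base window.

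Levels can be compared between genes only per length, for which TMM-adjusted CPM was divided by the deposited exon length in kilobases. On this scale the members together summed to 2372 ± 262 in MC903 libraries and 1941 ± 218 in vehicle libraries (SD, n = 4 each), and the groups overlapped. Serpinb5 was the most abundant member in both groups, with 19.9% of the summed level in MC903 libraries and 19.8% in vehicle libraries. Spink5 held 13.7% in MC903 libraries and 8.79% in vehicle libraries, Serping1 held 7.60% in MC903 libraries and 12.9% in vehicle libraries, and Serpina9 held 5.99% in MC903 libraries and 0.081% in vehicle libraries. The summed Spink level was 381 ± 74.5 in MC903 libraries and 177 ± 21.1 in vehicle libraries, without overlap, and most of it was Spink5. The summed Serpina level was 351 ± 65.7 in MC903 libraries and 211 ± 20.9 in vehicle libraries, also without overlap, but without Serpina9 it was 210.1 ± 35.8 in MC903 libraries and 209.5 ± 21.3 in vehicle libraries. Serpinb genes summed to 1337 ± 146 in MC903 libraries and 1135 ± 162 in vehicle libraries, and other Serpin genes to 303 ± 64.1 in MC903 libraries and 419 ± 42.6 in vehicle libraries, with overlap in both cases. Near the top of the list, Serpinb2 (209.6 ± 53.5) and Serping1 (181 ± 41.6) in MC903 libraries did not differ beyond their spread, and in vehicle libraries neither did Serping1 (250.7 ± 29.5) and Serpinb6d (199.7 ± 99.1).

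**Figure D3:**
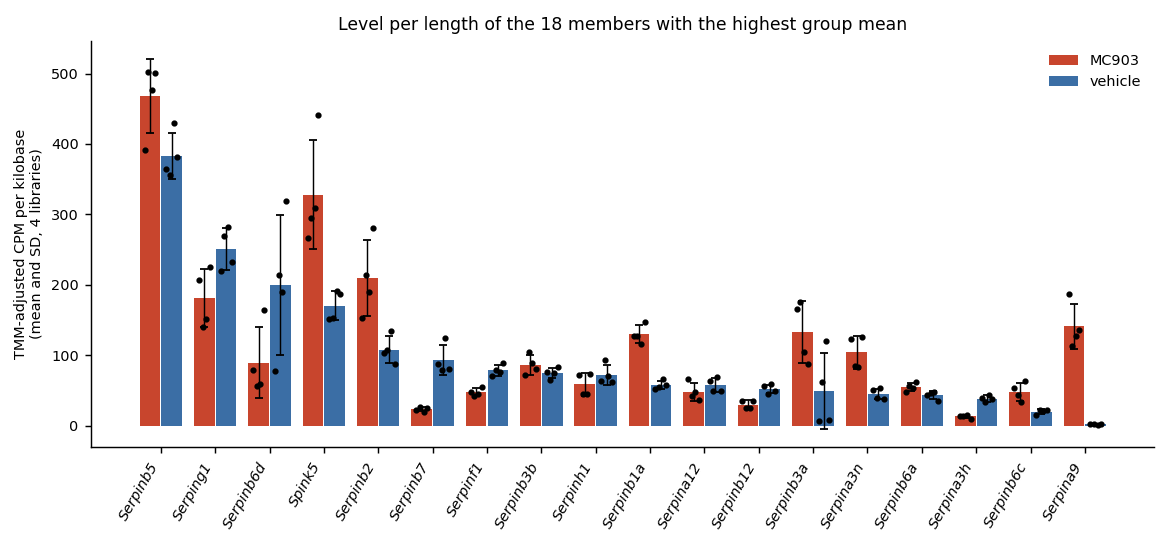
Mean level per length, in TMM-adjusted CPM per kilobase of exon, of the 18 members with the highest group mean, with MC903 in red beside vehicle in blue, the SD over 4 libraries as error bars and each library as a point. Spink5, Serpina9, Serpina3n and Serpinb1a stand higher in every MC903 library, Serpinb7, Serpinb12, Serpinf1 and Serpina3h stand lower in every MC903 library, and Serpinb5 overlaps.

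Proteases, genes of plasminogen activation and coagulation, and other protease inhibitors were taken as lists by function. These lists are not restricted to targets of the Serpin and Spink proteins, nor are all their genes proteases. Of 18 tested serine proteases of epidermis, 14 rose and 1 fell, with a median log2 fold change of 1.27, against the 21.3% of all genes that rose. Klk13 (6.08 ± 0.28, adjusted p = 1.35e-07), Klk6 (4.90 ± 0.24, adjusted p = 1.83e-07) and Klk9 (3.66 ± 0.22, adjusted p = 7.62e-07) had the smallest p-values. Among the kallikreins restrained by Spink5 protein, Klk7 rose by 1.95 ± 0.18 (adjusted p = 1.43e-05), Klk5 was not called (0.04 ± 0.17, adjusted p = 0.863) and Klk14 had too few counts to test. Of 12 tested serine proteases of leukocytes, 8 rose and 1 fell (median 0.81), with the smallest p-values for Mcpt8 (6.95 ± 0.22, adjusted p = 1.99e-08), Gzmb (4.47 ± 0.25, adjusted p = 4.95e-07) and Mcpt2 (6.05 ± 0.63, adjusted p = 2.93e-05). Of the neutrophil proteases that Serpinb1a protein inhibits, Ctsg was not called (0.35 ± 0.22, adjusted p = 0.225), and Elane and Prtn3 had too few counts to test. Without vehicle replicate 2, 13 epidermal proteases rose and 1 fell, 7 leukocyte proteases rose, and Gzmm, the leukocyte protease gene called lower with all libraries, was not called lower.

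Of 12 cathepsins and caspases, proteases that clade B serpins are known to inhibit in part, 11 rose (median 1.22) and 0 fell by edgeR, DESeq2, limma-voom or an unadjusted p under 0.05, with the smallest p-values for Casp14 (3.30 ± 0.20, adjusted p = 7.03e-07), Ctss (1.94 ± 0.16, adjusted p = 5.81e-06) and Casp4 (1.59 ± 0.14, adjusted p = 8.60e-06). Over all genes tested, 21.3% rose and 20.2% fell. Of 15 tested genes of plasminogen activation and coagulation, 6 rose and 2 fell (median 0.26), with the smallest p-values for F7 (4.21 ± 0.33, adjusted p = 4.12e-06), F10 (3.81 ± 0.32, adjusted p = 6.89e-06) and Plaur (1.85 ± 0.17, adjusted p = 1.45e-05). Plau, encoding the urokinase that Serpinb2 protein inhibits, rose by 1.59 ± 0.25 (adjusted p = 4.67e-04). Of 29 tested protease inhibitors from other families, 11 rose and 10 fell (median -0.04), and the cystatin-family stefins Stfa3 (6.79 ± 0.27, adjusted p = 6.30e-08), Stfa2 (7.21 ± 0.30, adjusted p = 6.32e-08) and Stfa1 (5.88 ± 0.29, adjusted p = 2.11e-07) had the smallest p-values. Without vehicle replicate 2, 11 cathepsins and caspases rose, 7 genes of plasminogen activation and coagulation rose and 2 fell, and 13 other protease inhibitors rose and 9 fell, with 35.7% of all genes tested called.

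**Figure D4:**
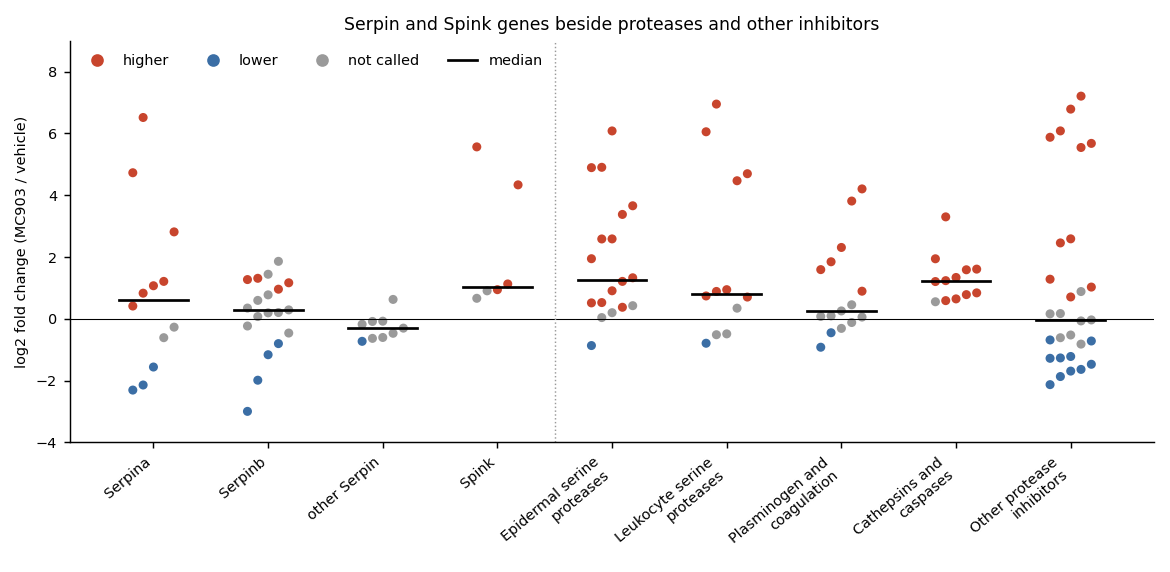
Log2 fold change, MC903 over vehicle, of each tested Serpin and Spink gene by clade (left of the dotted line) and of each tested gene in the protease and inhibitor lists (right of it), coloured by call, with a line at each median. The medians are 0.62 for Serpina, 0.29 for Serpinb, -0.30 for other Serpin genes and 1.04 for Spink genes, against 1.27 for epidermal serine proteases and -0.04 for other protease inhibitors.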

How the data were processed

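Ribosome-depleted total RNA of whole ear, 1 µg per library, was sequenced as single reads of 50 bases, per the labels' protocols. Per the submitters' processing notes, the authors used STAR 2.0.4b and featureCounts 1.4.5 of Subread on genome build mm10, and deposited 1 table of read counts per gene for each library. Per the file headers the same tables hold the authors' CPM (each count divided by the library total) and RPKM (that CPM per kilobase of exon), which were recomputed from the deposited counts only to check them. The annotation release, the strand setting and the treatment of reads that match several genes are not given in the sources used here, so counts of near-identical paralogs are uncertain.

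Of the 41388 Ensembl IDs, 40254 were named by ID and 157 by position, and 977 kept no name. Counts were fitted with edgeR 4.0.16 (R 4.3.3), with filterByExpr by group, TMM factors and the quasi-likelihood F-test over all 8 libraries, and calls were made at a Benjamini-Hochberg adjusted p under 0.05, adjusted across every gene that passed the filter. Standard errors are the log2 fold change divided by the square root of F. The levels given are CPM adjusted by TMM factors, and levels per length use the deposited exon length. Shared sequence was measured as the share of 50-base windows of a gene's GENCODE transcripts that also occur in another gene. No 2 libraries agreed within counting noise. Depth was 12310466 to 16837221 counts per library, and intervals of summed counts are exact, at 95%, and cover counting error only. Alternatives were other scaling, other filters, DESeq2 1.42.0, limma-voom (limma 3.58.1), robust dispersion, the replicate block and leaving out each library, and the fit was tested on simulated data. Sequences are from RefSeq (GRCm38.p6), and motifs were searched on both strands of the 250 bases upstream of the start.

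The genes and lists were chosen with earlier results of these data known, and the B cell list after the values were seen. Values in every library are given for up to 6 genes of each clade with the smallest p and the 2 with the highest level per length. The values of 1 tested gene are not reported here.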

Additional observations from a re-analysis of the deposited data

Results flagged for a closer look

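In 4 of 92 groups of 4 libraries, 1 per tested gene and condition, a single library lay far from the other 3, and chance gives this in about 1 group in 20. Serpine2 had 158.8 CPM in vehicle replicate 3, against 87.3 to 98.5 CPM in the other vehicle libraries. Serpinb1c had 0.4868 CPM in MC903 replicate 4, against 0.133 to 0.167 CPM in the other MC903 libraries, and it was still below every vehicle library. Serpinb9b had 2.092 CPM in MC903 replicate 1, against 0.928 to 0.9998 CPM in the other MC903 libraries. Serpina9 had 3.599 CPM in vehicle replicate 3, against 6.07 to 6.56 CPM in the other vehicle libraries.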

How the results depend on the processing

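Of the 23 calls, 21 held under all 17 alternatives, and none changed direction. Serpinb6d lost its call with DESeq2 (adjusted p = 0.0706), with robust dispersion (adjusted p = 0.0814) and in 6 of the 8 fits that left out a library, all but those without vehicle replicate 1 and without MC903 replicate 4 (adjusted p up to 0.122). Serpina3i lost its call with upper quartile factors (adjusted p = 0.0862), library sizes alone (adjusted p = 0.257), no filter (adjusted p = 0.0825), the replicate block (adjusted p = 0.0979) and when any library but MC903 replicate 4 was left out. With no filter, 6 Serpina genes were lower and the Serpina median was 0.401, since more genes of low counts were tested. Other Serpin genes called lower numbered 3 with upper quartile factors, 2 with DESeq2 and 2 with limma-voom. Leukocyte serine proteases called lower, 1 gene (Gzmm), numbered 0 with library sizes alone, no filter and DESeq2, and genes of plasminogen activation and coagulation called lower numbered 1 with relative log expression (RLE) factors, library sizes alone, no filter, limma-voom and the replicate block. Leaving out 1 library at a time gave 4 to 7 Serpinb genes called higher (7 without vehicle replicate 3), 3 to 5 Serpina genes called lower (5 without MC903 replicate 1, without MC903 replicate 4 and without vehicle replicate 1), 1 to 2 other Serpin genes called lower (2 without MC903 replicate 1, without MC903 replicate 4 and without vehicle replicate 4), 0 to 2 leukocyte proteases called lower, 1 to 2 coagulation genes called lower, and a Serpina median from 0.335 (without MC903 replicate 1) to 0.975 (without vehicle replicate 3), with 0.838 without vehicle replicate 2. The causes were not tested. The median log2 fold change of all genes was -0.03 with TMM factors and -0.12 with library sizes alone. No label said what the replicate numbers mark. Deviations from the group means had correlations of 0.071, -0.143, -0.133 and -0.204 between same-numbered libraries. These values cannot show whether same-numbered libraries shared a litter or a day. With the replicate block 16 Serpin and Spink genes were higher and 8 lower. The 30 genes not tested had counts under the filter, where 3 counts in a library correspond to 0.171 to 0.250 CPM. Some of them share sequence with other genes, and the parts of depth and of reads that match several genes were not tested.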
